A study of Homo sapiens with 52 samples.

Results

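H1 human embryonic stem cells that had spent 7 or 8 days in retinoic acid were set against cells of the same time course after 5 or 6 days. The 4 samples of days 7 and 8 and the 4 samples of days 5 and 6 are 8 of the 26 samples of the series. Each sample was hybridised to both arrays of the Affymetrix HG-U133 pair, the A and the B chip, so the comparison rests on 16 of 52 arrays. Both windows come from the line H1, kept in mTeSR medium on Matrigel and differentiated with 5 µM retinoic acid, with 2 biological replicates per day. H1 is a single established line, and no untreated H1 culture was sampled on these days, so retinoic acid and time in culture cannot be told apart. The remaining samples are H1 on days 0 to 4, 9 and 10 and the undifferentiated lines H9 and HUES8. They entered the fit to estimate the spread between replicates.

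Pluripotent stem cells are held in their state by a small circuit of transcription factors, chiefly OCT4 (POU5F1), SOX2 and NANOG, which activate one another and many other genes of that state. Retinoic acid, the active form of vitamin A, binds nuclear receptors that act directly on DNA, switches on HOX genes in a set order and leads stem cells to leave pluripotency. Which tissue they then form depends on the signals around them, and neural, epithelial, endodermal and mesenchymal cells have all been obtained.

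Signal is the MAS5 intensity deposited by the authors, a linear scale on which the brightness of one gene cannot be set against that of another. A gene was called present on an array at a detection p under 0.05. Values of the 2 replicates of a day are given in the order of their numbers. A change is the mean log2 signal of days 7 and 8 minus that of days 5 and 6, and is given ± SE with 4 samples per window. It was tested with limma and Benjamini-Hochberg adjustment over 12201 genes, and an adjusted p under 0.05 counts as a call.

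Signs of RNA quality differed between the windows by less than the spread between replicates. The share of probe sets present on the A chip was 51.8% ± 1.4 on days 7-8 and 51.5% ± 1.8 on days 5-6 (SD, n = 4 each, exact permutation test, two-sided p = 0.743). On the B chip it was 38.1% ± 2.4 on days 7-8 and 36.3% ± 3.4 on days 5-6 (SD, n = 4 each, exact permutation p = 0.371, with 0.0286 the smallest p that 4 against 4 allow). The ratio of 3′ to 5′ ACTB signal was 1.49 on days 7-8 and 1.48 on days 5-6 on the A chip. The replicates of a day differed in overall profile. On the first principal component, which held 37.8% of the variance over all 26 samples and on which the daily means of H1 climbed with time, the replicates numbered 1 and 2 lay at 23.9 and 8.24 on day 5 and at 35.9 and 23.0 on day 6. They lay at 48.0 and 31.3 on day 7 and at 52.1 and 51.8 on day 8. Replicate 2 of day 7 therefore lay below replicate 1 of day 6, and the windows overlapped in overall profile.

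**Figure D1:**
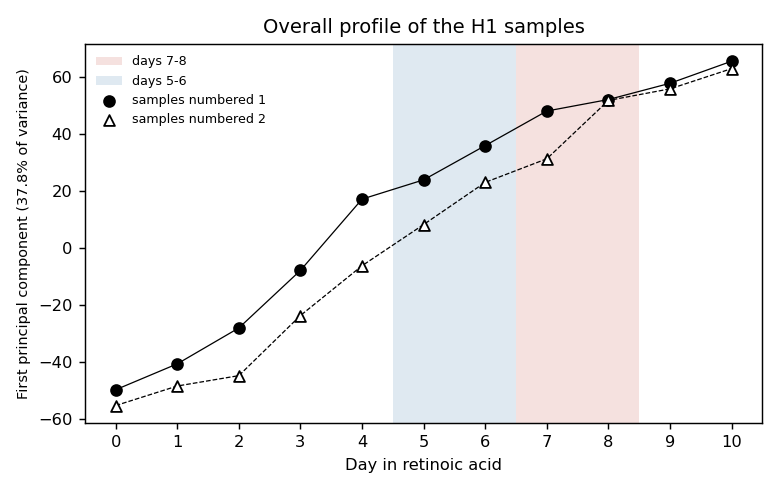
The first principal component of log2 signal over all genes tested (vertical axis, 37.8% of the variance) is plotted against the day in retinoic acid (horizontal axis), with a line for the H1 samples numbered 1 (filled circles) and one for those numbered 2 (open triangles). Days 7-8 are shaded red and days 5-6 blue; replicate 2 of day 7, at 31.3, lies below replicate 1 of day 6, at 35.9.

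The windows differed in a small number of genes, most of them lower on days 7-8. Of 12201 genes, 72 were called (0.59%), 16 higher (0.131%) and 56 lower (0.459%). Of these, 14 rose and 33 fell by at least 2-fold. The 4 samples of each window did not overlap for 46 of the 72 called genes, and this was so for 5.23% of all genes tested. It held for 12 of the rises, against 2.74% of all genes, and for 34 of the falls, against 2.49%. An unadjusted p under 0.05 was reached by 1253 genes (10.3%). The median change over all genes was 0.00. The count of calls depended on the samples and on the way the error was estimated. It was 146 without day 7 replicate 2, and 34, 18, 25, 44 and 34 without day 5 replicate 2, day 6 replicate 2, day 7 replicate 1, day 8 replicate 1 and day 8 replicate 2. With the replicate number as a block, since samples of one number deviated together, limma called 172 genes, all 72 among them. A fit to the 8 samples alone called 17 genes. Pooling the days as 4 against 4 replicates, which counts the drift between days within a window as error, called 0 with limma, with 1257 genes at an unadjusted p under 0.05. Calls held in each of the 8 fits that left out 1 sample for 15 genes. These were FOXD3-AS1, SELENOM, NANOG, USP44, POU5F1P4, VRTN, POU5F1B, DNMT3B, POU5F1P3, DEPTOR, GPC4 and DPPA4 among the falls and EFEMP1, TTR and FOXA2 among the rises.

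**Figure D2:**
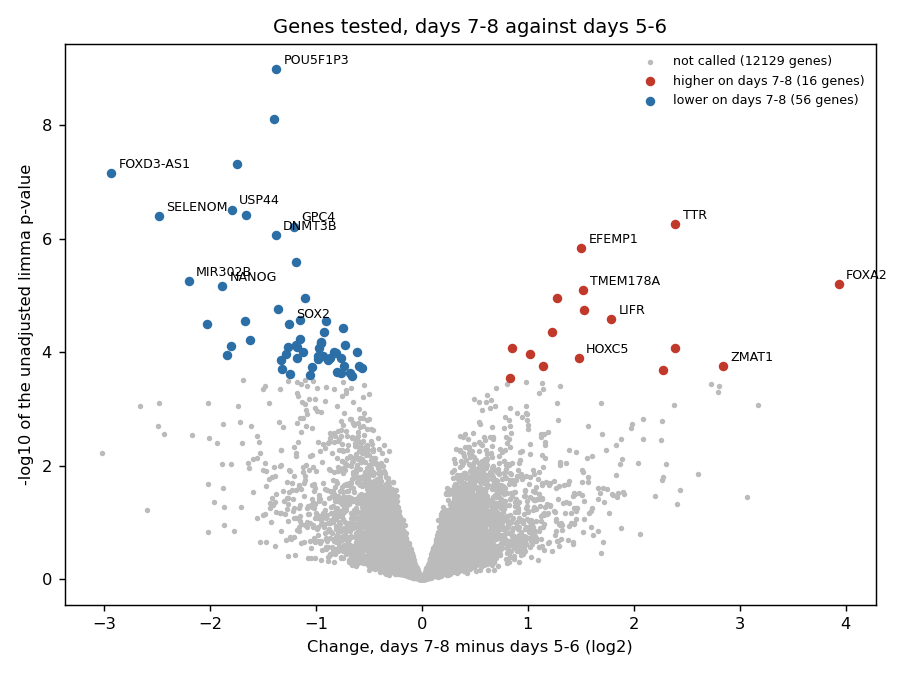
The change of each gene from days 5-6 to days 7-8 (horizontal axis, log2) is plotted against the −log10 of its unadjusted limma p (vertical axis) for 12201 genes. The 16 called genes that were higher on days 7-8 are red, the 56 that were lower are blue and the rest are grey; FOXA2 has the largest called rise, 3.94, and FOXD3-AS1 the largest called fall, -2.93.

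The genes of the pluripotent state made up the clearest group of falls. Of 28 measured genes in the list of core pluripotency genes, 8 fell and none rose, against 0.59% of all genes called, and the median change of the list was -0.80, against 0.00 over all genes. The 8 were MIR302B, NANOG, USP44, DPPA2, VRTN, DNMT3B, SOX2 and DPPA4. Falls of this list were not confined to this step. In the step before, 3 of the 28 were called lower (0.607% of all genes), with a list median of -0.68. In the step after, 7 were called lower (1.02% of all genes), with a list median of -0.74. On days 5-6, 17 of the 28 were already lower than on day 0 (6.72% of all genes). The list was drawn up with results of these samples known, so its direction is not independent evidence. Without 1 sample its count of calls lay between 5 (without day 6 replicate 2) and 11 (without day 7 replicate 2), and it was 2 in the fit to the 8 samples alone. In RNA of whole cultures, fewer cells of a type and less RNA per cell cannot be told apart.

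NANOG, a homeobox factor of the pluripotency circuit, had a signal of 369 and 374 on day 7 and 405 and 115.5 on day 8, against 1218 and 1777 on day 5 and 699 and 796 on day 6. All samples of days 7-8 were dimmer than all samples of days 5-6, and the gene was present on 2 of 4 arrays of days 7-8 and on 4 of 4 of days 5-6. Its change was -1.89 ± 0.31 (adjusted p = 0.00553), and a second probe set had a change of -2.39. SOX2, which binds DNA together with OCT4, had a signal of 1924 and 2346 on day 7 and 1774 and 1000.0 on day 8, against 3638 and 6181 on day 5 and 2783 and 4153 on day 6. The windows did not overlap, and the change was -1.26 ± 0.24 (adjusted p = 0.0151). Leaving out 1 sample ended the SOX2 call in 4 of 8 fits, with the highest adjusted p, 0.121, without day 6 replicate 2.

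The upstream region of NANOG is shown because it holds a joint site for SOX and OCT4, the kind of element through which these factors act together. These are the 250 bases before the RefSeq start of the gene on GRCh38.p14, chr12:7789152-7789401, plus strand, with the site in capitals.
NANOG upstream: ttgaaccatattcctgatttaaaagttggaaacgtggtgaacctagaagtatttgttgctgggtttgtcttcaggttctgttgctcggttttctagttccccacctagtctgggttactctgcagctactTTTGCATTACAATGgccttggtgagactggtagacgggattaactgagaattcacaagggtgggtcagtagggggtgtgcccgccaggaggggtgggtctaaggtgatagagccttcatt
On the opposite strand the site reads as the SOX site CATTGT, 1 free base and ATGCAAA, which is most of an octamer, and this joint motif was searched on both strands. It was found in 2 of 27305 RefSeq upstream regions of this length (0.00732%) and in 1 of the 42 fallen genes that had such a region, NANOG itself. The full octamer ATTTGCAT was in 1.66% of all upstream regions and in 0 of the 42. The SOX site alone, which the joint motif includes, was in 9.45% of all upstream regions, in 3 of the 42 fallen genes (DACT1, NANOG and PHC1) and in 2 of 10 risen ones (CAST and LIFR). These matches describe the letters of this window and say nothing of binding.

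Transcripts that cross-match OCT4 fell as well. POU5F1 had no probe set of its own in the annotation, but 3 probe sets assigned to its copies POU5F1P3, POU5F1P4 and POU5F1B, which share most of its sequence, were measured, so their signal cannot be assigned to one gene. POU5F1B had a signal of 2171 and 2948 on day 7 and 1755 and 1160.0 on day 8, against 6816 and 6112 on day 5 and 3788 and 3939 on day 6. It fell by 1.39 on the log2 scale (change -1.39 ± 0.15, adjusted p = 4.80e-05) and the windows did not overlap. The change was -1.74 ± 0.20 for POU5F1P4 (adjusted p = 0.000199) and -1.38 ± 0.13 for POU5F1P3 (adjusted p = 1.28e-05), which had the smallest p of all genes.

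The transcript annotated as MIR302B fell most among the listed pluripotency genes. The miR-302 cluster encodes the most abundant microRNAs of human pluripotent cells, which act on cell cycle and signalling transcripts. MIR302B had a signal of 6829 and 11388 on day 7 and 4421 and 2161 on day 8, against 20877 and 38894 on day 5 and 15047 and 26920.5 on day 6, with no overlap between windows. The change was -2.20 ± 0.37 (adjusted p = 0.0053). Without day 6 replicate 2 the adjusted p was 0.0511. Arrays of this kind read long labelled transcripts, so the value stands for the precursor transcript and not for mature miRNAs. The mature 3p sequences of the cluster are printed to show what the transcript carries, from RefSeq on GRCh38.p14, with the seed (bases 2 to 8) in capitals.
hsa-miR-302a-3p: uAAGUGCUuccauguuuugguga
hsa-miR-302b-3p: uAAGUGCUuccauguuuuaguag
hsa-miR-302c-3p: uAAGUGCUuccauguuucagugg
hsa-miR-302d-3p: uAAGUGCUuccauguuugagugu
hsa-miR-367-3p: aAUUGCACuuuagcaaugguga
All 5 lie on the minus strand of chromosome 4, with the miR-302b-3p sequence at chr4:112648489-112648511 and that of miR-367-3p at chr4:112647877-112647898. The 4 miR-302 sequences share the seed AAGUGCU and differ from one another only after base 8, while miR-367-3p has the seed AUUGCAC.

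Other genes tied to pluripotency fell in the same window. FOXD3-AS1, a long noncoding RNA next to the stem cell factor gene FOXD3, had a signal of 190.2 and 311 on day 7 and 37.2 and 27.5 on day 8, against 676 and 1155 on day 5 and 370.2 and 715 on day 6. It was present on 0 of 4 arrays of days 7-8 and on 3 of 4 of days 5-6, so the fall was at least 6.01-fold, where a signal below the lowest present signal of its array was raised to that signal (fitted change -2.93 ± 0.36, adjusted p = 0.000212). A fold given as at least compares the means of the windows and leaves out the spread between samples. FOXD3 itself was present on none of the 8 arrays. USP44, a deubiquitinase of histone H2B, had a signal of 1029 and 1178 on day 7 and 754 and 352 on day 8, against 2523 and 4967 on day 5 and 1460.0 and 2524 on day 6. Its change was -1.79 ± 0.24 (adjusted p = 0.000699), with no overlap. VRTN, the vertnin gene, had a signal of 97.7 and 138.6 on day 7 and 53.6 and 56.1 on day 8, against 274 and 349 on day 5 and 164 and 261 on day 6. It was present on 0 of 4 arrays of days 7-8 and on 2 of 4 of days 5-6, and its geometric mean fell 3.17-fold (adjusted p = 0.000699). DPPA4 and DPPA2 encode partner proteins that bind chromatin in pluripotent cells. DPPA4 averaged 11707 on days 7-8 and 26606 on days 5-6 as geometric means, with a change of -1.18 ± 0.19 (adjusted p = 0.00263). DPPA2 changed by -1.67 ± 0.31 (adjusted p = 0.0145), with overlapping windows. The DPPA2 call was lost in 4 of 8 fits without 1 sample, up to an adjusted p of 0.127 without day 7 replicate 1.

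Some pluripotency genes were not called in this step. The comparison starts from days 5-6, so any earlier fall of these genes does not enter it. LIN28A, an RNA-binding protein that blocks let-7 maturation, averaged 9822 on days 7-8 and 12534 on days 5-6, with a change of -0.35 ± 0.23 (adjusted p = 0.624). It was present on all 8 arrays, as were SOX2, DNMT3B and DPPA4, so transcripts of the stem cell state remained in both windows. ZFP42, a zinc finger gene also called REX1, averaged 6796 on days 7-8 and 10289 on days 5-6, with a change of -0.60 ± 0.18 (adjusted p = 0.19, and 0.038 with the replicate block). PRDM14 was present on no array of either window, and no fold is given.

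**Figure D3:**
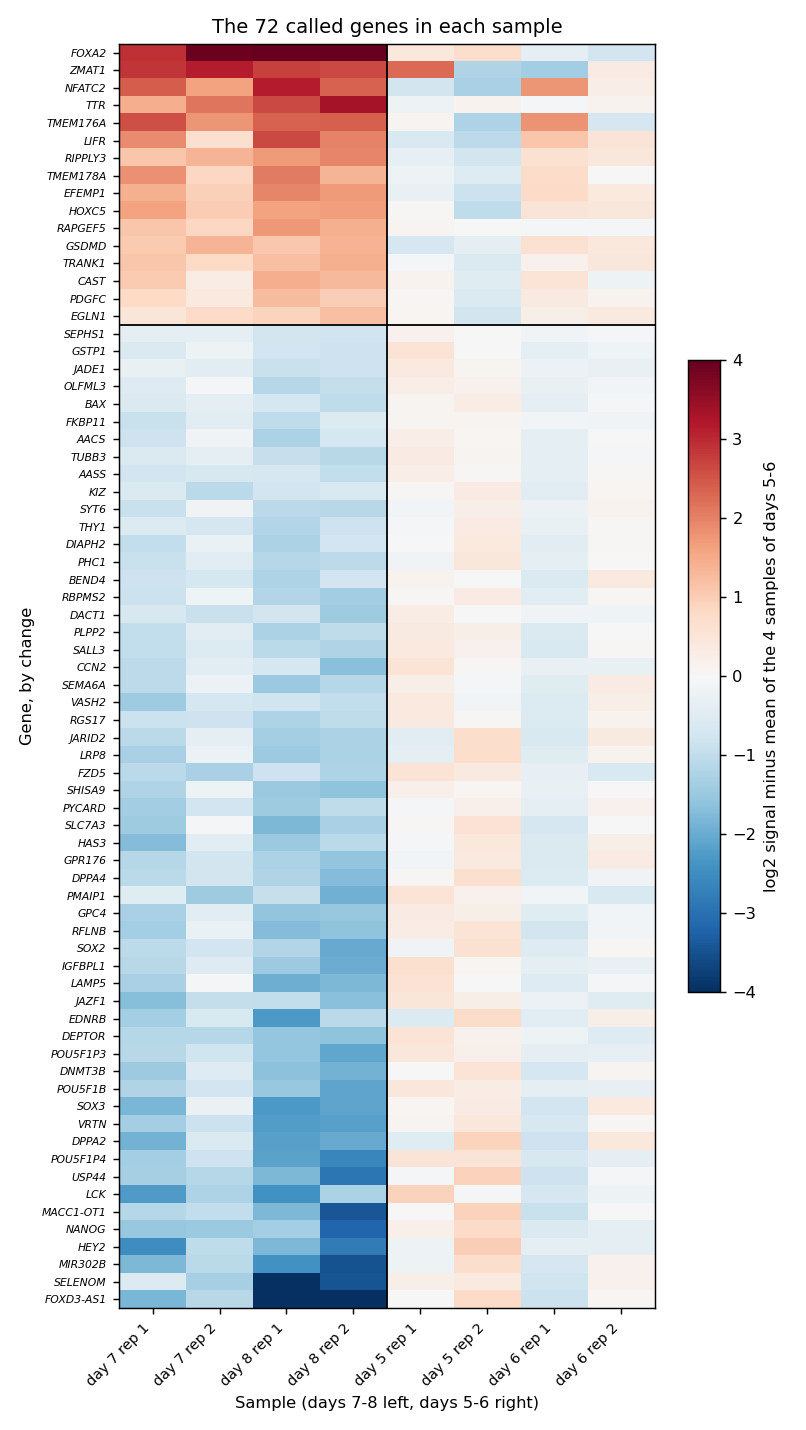
Each row is 1 of the 72 called genes, ordered by change, and each column 1 sample, with days 7-8 left of days 5-6; colour gives the log2 signal minus the mean of the 4 samples of days 5-6. FOXA2 is at the top and FOXD3-AS1 at the bottom; for many falls day 7 replicate 2 is the palest of the 4 samples of days 7-8.

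Among chromatin regulators 3 genes fell. In the list of DNA methylation and polycomb genes these were 3 of 27 measured (11.1%), against 0.459% of all genes, while the list median was -0.01. DNMT3B, a de novo DNA methyltransferase that is high in pluripotent cells, had a signal of 3498 and 6647 on day 7 and 3076 and 2564 on day 8, against 9704 and 14067 on day 5 and 6006 and 10207 on day 6. Day 7 replicate 2, at 6647, exceeded day 6 replicate 1, at 6006, so the windows overlapped. The change was -1.38 ± 0.20 (adjusted p = 0.00105). DNMT3B had first risen, from 10035 and 10320 on day 0 to 25584 and 25418 on day 1. Days 5-6 against day 0 gave a change of -0.09 ± 0.24 (limma, adjusted p = 0.856). JARID2, which recruits the polycomb complex PRC2, changed by -1.03 ± 0.23 (adjusted p = 0.0362), and PHC1, a subunit of PRC1, by -0.87 ± 0.19 (adjusted p = 0.029). Leaving out 1 sample ended the call in 5 of 8 fits for JARID2 and in 5 of 8 for PHC1.

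Signalling genes also fell, singly and from different pathways. HEY2, a repressor of the HES family downstream of Notch, had a signal of 352 and 962 on day 7 and 558 and 280.2 on day 8, against 1693 and 3885 on day 5 and 1505 and 1486 on day 6. The windows did not overlap, and day 5 replicate 2 was far above the other samples of its window. It was present on 0 of 4 arrays of days 7-8 and on 2 of 4 of days 5-6. The geometric mean fell 4.08-fold (change -2.03 ± 0.39, 95% interval -2.83 to -1.23, adjusted p = 0.0151). For HEY2 the call ended in 4 of the 8 fits that left out 1 sample, and the adjusted p reached 0.138 without day 7 replicate 1. FZD5, a WNT receptor, had a signal of 527 and 454 on day 7 and 629 and 472 on day 8, against 1633 and 1439 on day 5 and 895 and 726 on day 6. It changed by -1.11 ± 0.19 (adjusted p = 0.00762) with no overlap. Without day 8 replicate 2 the adjusted p was 0.0503. DACT1, an inhibitor of WNT signalling that binds Dishevelled, changed by -0.92 ± 0.18 (adjusted p = 0.0187). In 3 of 8 fits without 1 sample DACT1 was no longer called, with an adjusted p of up to 0.106 without day 8 replicate 2. In the lists of Notch and of WNT genes, HEY2 was the only call among 18 measured genes and FZD5 the only one among 28. Of all genes 0.59% were called. DACT1 stood outside the WNT list.

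DEPTOR, an inhibitor of the kinase mTOR, had a signal of 189.9 and 189.9 on day 7 and 144.7 and 137 on day 8, against 616 and 471 on day 5 and 367.4 and 292 on day 6. All samples of days 7-8 lay below all samples of days 5-6, and the change was -1.36 ± 0.24 (adjusted p = 0.011), although a second probe set had a change of 1.05. DEPTOR had risen before this step, with geometric means of 156 on day 0, 916 on days 3-4 and 420 on days 5-6. On days 7-8 it averaged 163, a change of 0.06 ± 0.30 against day 0. JAZF1, a zinc finger cofactor, was the only called gene present on all 4 arrays of days 5-6 and on 0 of 4 of days 7-8. It had a signal of 244 and 409.8 on day 7 and 399.7 and 244 on day 8, against 1095 and 918 on day 5 and 671 and 564 on day 6. The geometric mean fell 2.5-fold (change -1.32 ± 0.29, 95% interval -1.93 to -0.71, adjusted p = 0.0383). JAZF1 lost its call in 6 of 8 fits without 1 sample, and without day 7 replicate 1 its adjusted p was 0.246. LCK, a kinase best known from T cells, was also called but was present on no array of either window, so no fold is given.

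Ligands and feedback genes of the FGF and ERK pathway, which sustains human pluripotent cells, gave no call, and 1 with the replicate block. The 0.59% called of all genes would rarely give a call in a list of this size. The median change of these FGF and ERK genes was nevertheless -0.49 over 26 measured genes, against 0.00 over all genes. Of the 26, 10 were present on all 8 arrays and 6 on none, so the median partly rests on signal not above background. FGF4, a target of SOX2 and OCT4, was present on 0 of 4 arrays of days 7-8 and on 4 of 4 of days 5-6, and had a signal of 132 and 101 on day 7 and 164 and 22.8 on day 8, against 231 and 442 on day 5 and 173 and 309 on day 6. The geometric means differed 3.23-fold, and the change of -1.69 ± 0.52 (95% interval -2.78 to -0.61) did not pass the test (adjusted p = 0.195). FGF4 averaged 84.8 on day 0, present on 1 of 2 arrays, and 544 on days 3-4. On days 7-8 it averaged 84.1, a change of -0.01 ± 0.64 against day 0. LEFTY1, a secreted inhibitor of NODAL, varied widely within both windows, with a signal of 1772 and 438 on day 7 and 1332 and 97.7 on day 8, against 4613 and 4206 on day 5 and 2957 and 326 on day 6, and was not called (change -1.88 ± 0.65, adjusted p = 0.28).

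Genes of the neural lists that fell belonged to different lineages and stages. SOX3, a relative of SOX2 in neural progenitors, had a signal of 226 and 667 on day 7 and 164 and 187 on day 8, against 848 and 999.9 on day 5 and 469 and 1050.3 on day 6. Day 7 replicate 2, at 667, lay above day 6 replicate 1, at 469, so the windows overlapped. The change was -1.62 ± 0.32 (adjusted p = 0.0236). Leaving out 1 sample ended the SOX3 call in 5 of 8 fits, with the highest adjusted p, 0.17, without day 6 replicate 2. It was the only call among 14 neural progenitor genes, against 0.59% of all genes called. With the replicate block 4 of the 14 were called, of 172 calls in all. EDNRB, the endothelin receptor of migrating neural crest cells, changed by -1.33 ± 0.28 (adjusted p = 0.0293) and was the only call among 16 neural crest genes. It was already measured in the undifferentiated cells, at 368 on day 0 (present on 2 of 2 arrays) and 433 on days 5-6. The change between these was 0.24 ± 0.34 (limma, adjusted p = 0.714). The EDNRB call was lost in 4 of 8 fits without 1 sample, up to an adjusted p of 0.213 without day 7 replicate 1. TUBB3, a neuronal tubulin, averaged 5882 on days 7-8 and 9867 on days 5-6 and changed by -0.75 ± 0.14 (adjusted p = 0.0166), 1 call among 26 neuron genes (2 with the block). The median change of the 26 was -0.34, with 17 negative and 9 positive changes. Windows did not overlap for 3 falls (2.49% of all genes) and 0 rises (2.74%). Of the 26, 8 were present on all 8 arrays and 3 on none. For TUBB3 the call ended in 3 of the 8 fits that left out 1 sample, and the adjusted p reached 0.121 without day 6 replicate 2.

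SELENOM, a selenoprotein of the endoplasmic reticulum, had the second largest called fall and a course of its own. It had a signal of 319 and 186 on day 7 and 19.5 and 42.7 on day 8, against 552 and 608 on day 5 and 269.7 and 531 on day 6. The low samples were those of day 8, and day 7 replicate 1 lay above day 6 replicate 1. The change was -2.48 ± 0.34 (adjusted p = 0.000699), and the gene was present on 1 of 4 arrays of days 7-8 and on 4 of 4 of days 5-6. SELENOM was the only gene called for day 8 against day 7 (0.0082% of genes; change -3.08 ± 0.49, adjusted p = 0.0339). It averaged 211 on days 9-10, and its change into days 7-8 minus its change into days 9-10 was -3.81 (adjusted p = 0.0285). No other gene was called in that difference of steps (0.0082% called), in which 324 genes reached an unadjusted p under 0.05 (2.66%). Both of these counts of 1 were 0 when limma was run with no intensity trend, after quantile normalization, with an offset of 50 before log2 and with no detection filter.

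Regulators of cell death moved in a few members. PMAIP1, which encodes the BH3-only protein NOXA, had a signal of 808 and 418 on day 7 and 594 and 296 on day 8, against 1638 and 1271 on day 5 and 1044 and 731 on day 6. It changed by -1.19 ± 0.24 (adjusted p = 0.0252). BAX, which forms pores in the mitochondrial outer membrane, averaged 659 on days 7-8 and 1052 on days 5-6 and changed by -0.68 ± 0.15 (adjusted p = 0.0422), with no overlap. They were the 2 calls among 23 apoptosis regulators, and the same 2 genes were the calls among 23 p53 targets. This was 8.7% of each list, against 0.59% of all genes. In 5 of 8 fits without 1 sample PMAIP1 was no longer called, with an adjusted p of up to 0.124 without day 8 replicate 2. BAX lost its call in 6 of 8 fits without 1 sample, and without day 6 replicate 2 its adjusted p was 0.243. PYCARD, the inflammasome adaptor, fell at least 2.21-fold (adjusted p = 0.0145), while GSDMD, the pore-forming gasdermin, rose (change 1.23 ± 0.24, adjusted p = 0.0187). Leaving out 1 sample ended the PYCARD call in 4 of 8 fits, with the highest adjusted p, 0.121, without day 6 replicate 2. The GSDMD call was lost in 3 of 8 fits without 1 sample, up to an adjusted p of 0.121 without day 6 replicate 2.

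The remaining called falls covered varied functions. MACC1-OT1, a noncoding transcript, had the largest of them (-1.84 ± 0.39, adjusted p = 0.0281), with no overlap between windows. They included transporters and enzymes, among them SLC7A3, a carrier of cationic amino acids (-1.15 ± 0.23, adjusted p = 0.0236), AASS of lysine breakdown (-0.76 ± 0.17, adjusted p = 0.0424) and GSTP1, a glutathione transferase (-0.59 ± 0.13, adjusted p = 0.0351). LAMP5, a lysosome-associated membrane protein, changed by -1.28 ± 0.27 (adjusted p = 0.028), LRP8, a reelin receptor, by -1.06 ± 0.24 (adjusted p = 0.0443) and SALL3, a zinc finger factor, by -0.95 ± 0.19 (adjusted p = 0.0251). The smallest called change was that of SEPHS1, a selenophosphate synthetase gene, at -0.56 ± 0.12 (adjusted p = 0.037). Each of these 8 lost its call in 4 to 8 of the fits that left out 1 sample. Further calls went to IGFBPL1, RFLNB, GPR176, SHISA9, RGS17, VASH2, SEMA6A, PLPP2, RBPMS2, BEND4, DIAPH2, SYT6, KIZ, AACS, FKBP11, OLFML3 and JADE1, with changes between -1.26 ± 0.26 and -0.61 ± 0.13. IGFBPL1 fell from a raised level, since it was higher on days 5-6 than on day 0 (1.84 ± 0.32, limma, adjusted p = 0.000265). Of the 34 called genes with other probe sets, DEPTOR, KIZ and SALL3 had one that pointed the other way.

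The rises were fewer than the falls, and 2 of them are genes of endoderm. FOXA2, a pioneer transcription factor of endoderm and floor plate, had a signal of 75.96 and 149 on day 7 and 176 and 271 on day 8, against 13.4 and 16.2 on day 5 and 7.77 and 5.81 on day 6. All samples of days 7-8 lay above all samples of days 5-6. It was present on 2 of 4 arrays of days 7-8 and on 0 of 4 of days 5-6, a rise of at least 5.89-fold (fitted change 3.94 ± 0.65, adjusted p = 0.00551). TTR, transthyretin, the carrier of thyroxine and of retinol-binding protein made by liver, yolk sac and choroid plexus, had a signal of 162 and 263 on day 7 and 372 and 593 on day 8, against 51.2 and 65.5 on day 5 and 56.3 and 65.4 on day 6. It was present on 3 of 4 arrays of days 7-8 and on 0 of 4 of days 5-6, and its geometric mean rose 5.25-fold (fitted change 2.39 ± 0.33, adjusted p = 0.000837).

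FOXA2 was the only call among 12 measured genes of definitive endoderm, against 0.59% of all genes called. The median change of the list was 0.11, with 6 positive and 6 negative changes. HHEX had its largest fall, -1.14, and was not called. SOX17 and CXCR4, defining markers of that tissue, were present on none of the 8 arrays, and GATA4 on 0 of 4 arrays of days 7-8 and 1 of 4 of days 5-6. Of 16 hepatic and visceral endoderm genes, TTR alone was called, and ALB and APOA2 were present on none of the 8 arrays. Changes were positive for 13 of the 16 and negative for 3. Among the latter AFP fell most, by 1.48 on the log2 scale (change -1.48, not called). Of the 16, 4 were present on all 8 arrays and 3 on none, so part of these signs rests on signal not above background. The largest rise of the 16, 3.17, was that of APOA2, which was never present. By days 9-10 TTR averaged 884 and FOXA2 297.

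**Figure D4:**
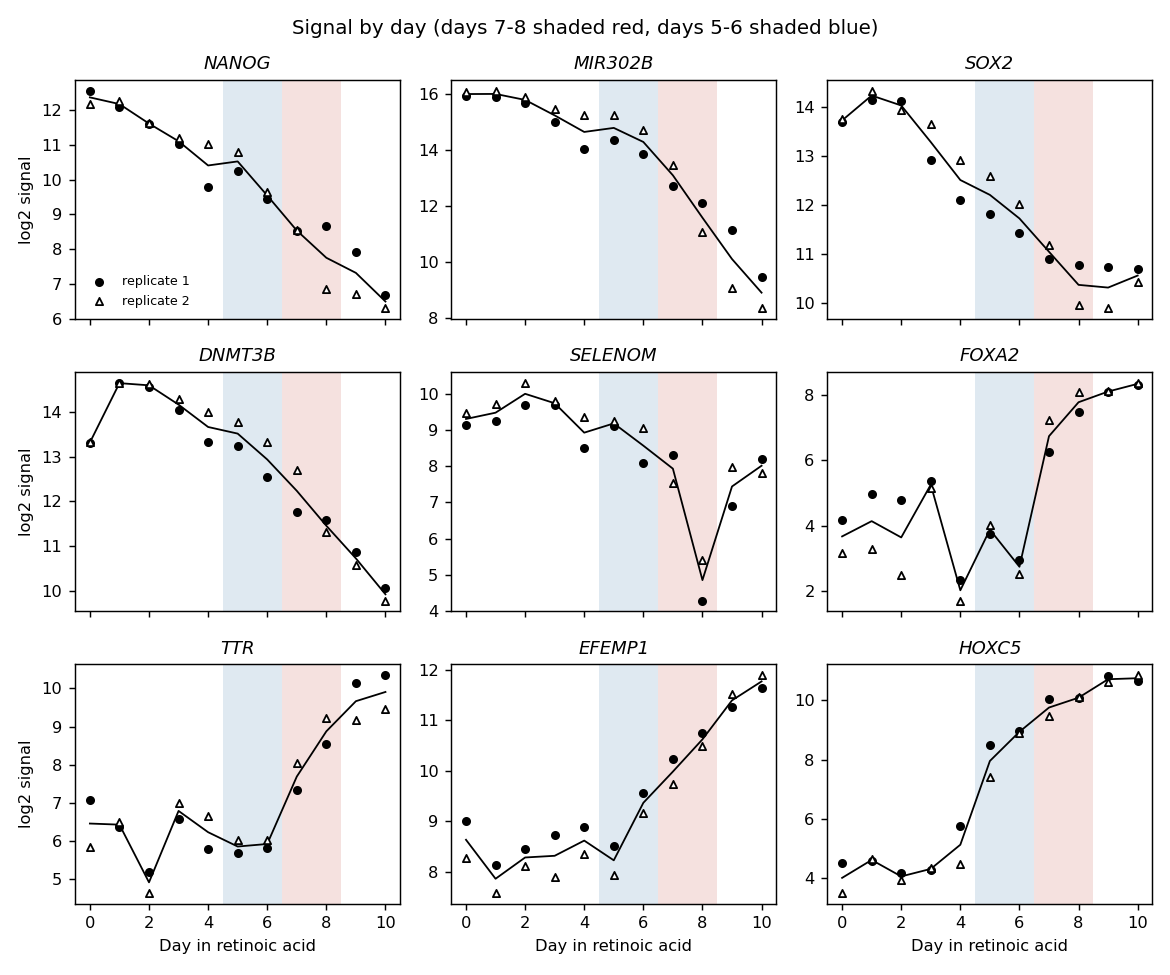
The log2 signal (vertical axes) of 9 genes is plotted against the day in retinoic acid (horizontal axes), with a point for each replicate and a line through the daily means; days 7-8 are shaded red and days 5-6 blue. NANOG, MIR302B, SOX2 and DNMT3B are lower on average in the red window than in the blue one, SELENOM has its lowest values on day 8, and FOXA2, TTR, EFEMP1 and HOXC5 are higher in the red window.

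Of the called rises present on both sides of the comparison, EFEMP1, RIPPLY3 and TMEM178A were the largest whose windows did not overlap. EFEMP1, the matrix glycoprotein fibulin-3, had a signal of 1202 and 857 on day 7 and 1733 and 1440.3 on day 8, against 365 and 247 on day 5 and 756 and 578 on day 6. Its change was 1.51 ± 0.22 (adjusted p = 0.00164), and a second probe set had a change of 1.36. RIPPLY3, a corepressor of T-box factors in the pharynx, had a signal of 346 and 412 on day 7 and 518 and 618 on day 8, against 129 and 95.4 on day 5 and 243 and 219.5 on day 6. It changed by 1.53 ± 0.27 (adjusted p = 0.011). For RIPPLY3 the call ended in 3 of the 8 fits that left out 1 sample, and the adjusted p reached 0.0745 without day 6 replicate 2. TMEM178A, a membrane protein gene, averaged 1165 on days 7-8 and 406 on days 5-6 and changed by 1.52 ± 0.26 (adjusted p = 0.00614). In 2 of 8 fits without 1 sample TMEM178A was no longer called, with an adjusted p of up to 0.0691 without day 6 replicate 2.

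Receptor and ligand genes were among the other rises. LIFR, the receptor chain for leukaemia inhibitory factor, had a signal of 979 and 413 on day 7 and 1658 and 1041 on day 8, against 175 and 129 on day 5 and 573 and 378 on day 6. Day 7 replicate 2 lay below day 6 replicate 1, and the change was 1.79 ± 0.33 (adjusted p = 0.0145). LIFR lost its call in 4 of 8 fits without 1 sample, and without day 7 replicate 1 its adjusted p was 0.127. PDGFC, a ligand of platelet-derived growth factor receptors, averaged 3421 on days 7-8 and 1897 on days 5-6, with no overlap and a change of 0.85 ± 0.17 (adjusted p = 0.0252). It was the only call among 33 receptor tyrosine kinase and ephrin genes (2 with the replicate block), against 0.59% of all genes called. Leaving out 1 sample ended the PDGFC call in 5 of 8 fits, with the highest adjusted p, 0.16, without day 7 replicate 1. RAPGEF5, an exchange factor for the GTPase Rap, changed by 1.28 ± 0.22 (adjusted p = 0.00762), while its second probe set had a change of 0.29. Without day 7 replicate 1 the adjusted p was 0.0557.

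Enzymes and regulators made up the rest. EGLN1, the oxygen-sensing prolyl hydroxylase that marks HIF for degradation, changed by 0.84 ± 0.19 (adjusted p = 0.0488), and CAST, calpastatin, the inhibitor of calpain proteases, by 1.02 ± 0.21 (adjusted p = 0.028). TRANK1 changed by 1.14 ± 0.25 (adjusted p = 0.0351). NFATC2, a transcription factor of calcium signalling, was called higher but was present on 1 of 4 arrays of days 7-8 and on 0 of 4 of days 5-6 (adjusted p = 0.0252). TMEM176A and ZMAT1, present on as few arrays, were also called higher (adjusted p = 0.0393 and 0.0351). For NFATC2, TMEM176A and ZMAT1 most signals of both windows were not above background, so no fold is given. Each of the 6 genes of this paragraph lost its call in 5 to 7 of the fits that left out 1 sample.

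HOX genes, which retinoic acid switches on in order, gave 1 call. HOXC5 had a signal of 1058 and 712 on day 7 and 1076 and 1112 on day 8, against 358 and 171 on day 5 and 501 and 482 on day 6. The windows did not overlap, and the change was 1.48 ± 0.31 (adjusted p = 0.029). It was the only call among 10 measured HOX genes of paralog groups 1 to 5, against 0.59% of all genes called. The median change of these 10 was 0.13. The HOXC5 call was lost in 6 of 8 fits without 1 sample, up to an adjusted p of 0.213 without day 7 replicate 1. In the step before, days 5-6 against days 3-4, HOXC5 had changed by 3.74 ± 0.31 (adjusted p = 6.39e-07). Of 8 measured genes of paralog groups 6 to 13 none was called. HOXB8 averaged 2076 on days 7-8 and 1297 on days 5-6 (change 0.68 ± 0.45, adjusted p = 0.643).

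None of 19 measured genes of retinoid metabolism and response was called, in a list so small that the 0.59% called of all genes would rarely give one. CYP26A1, the enzyme that breaks down retinoic acid and is induced by it, averaged 25248 on days 7-8 and 28323 on days 5-6, with a change of -0.17 ± 0.16 (adjusted p = 0.758). RARB, a retinoic acid receptor gene that is itself a target, had a change of -0.38 ± 0.30 (adjusted p = 0.701). CYP26B1, a second enzyme of the same family, had a signal of 2607 and 1584 on day 7 and 3826 and 2809 on day 8, against 616 and 269 on day 5 and 1338 and 621 on day 6. All samples of days 7-8 lay above all samples of days 5-6, and the change of 2.08 ± 0.57 did not pass the test (adjusted p = 0.122).

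No epithelial gene of the lists passed the test at this step, and small rises were not excluded. None of 6 measured keratin genes, 26 genes of epithelial junctions and 24 epithelial regulators was called. With 0.131% of all genes called higher, no call is also what the background share gives for lists of this size. Changes were positive for 5 of 6, 17 of 26 and 13 of 24 genes, and the median changes were 0.19, 0.13 and 0.05, against 0.00 over all genes. Keratins 8 and 18 form the filaments of simple epithelia. KRT18 averaged 40652 on days 7-8 and 35689 on days 5-6 (change 0.19 ± 0.14, adjusted p = 0.692), and KRT8 11961 on days 7-8 and 8708 on days 5-6 (change 0.46 ± 0.20, adjusted p = 0.451). The windows did not overlap for KRT8 and did for KRT18. The unadjusted 95% intervals were 0.04 to 0.87 for KRT8, -0.11 to 0.49 for KRT18 and -0.30 to 0.39 for KRT19, another simple keratin. EPCAM, an epithelial adhesion molecule that stem cells also carry, averaged 8398 on days 7-8 and 6669 on days 5-6 without overlap, and did not pass the test (change 0.33 ± 0.13, 95% interval 0.05 to 0.61, adjusted p = 0.401). CDH1, E-cadherin, had a change of 0.07 ± 0.12, with a 95% interval of -0.18 to 0.32. DSP, which encodes the desmosome protein desmoplakin, had a change of 0.79 ± 0.29 (95% interval 0.18 to 1.39, adjusted p = 0.326), with overlapping windows. In the step before, it had changed by 1.54 ± 0.29 (adjusted p = 0.00716).

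**Figure D5:**
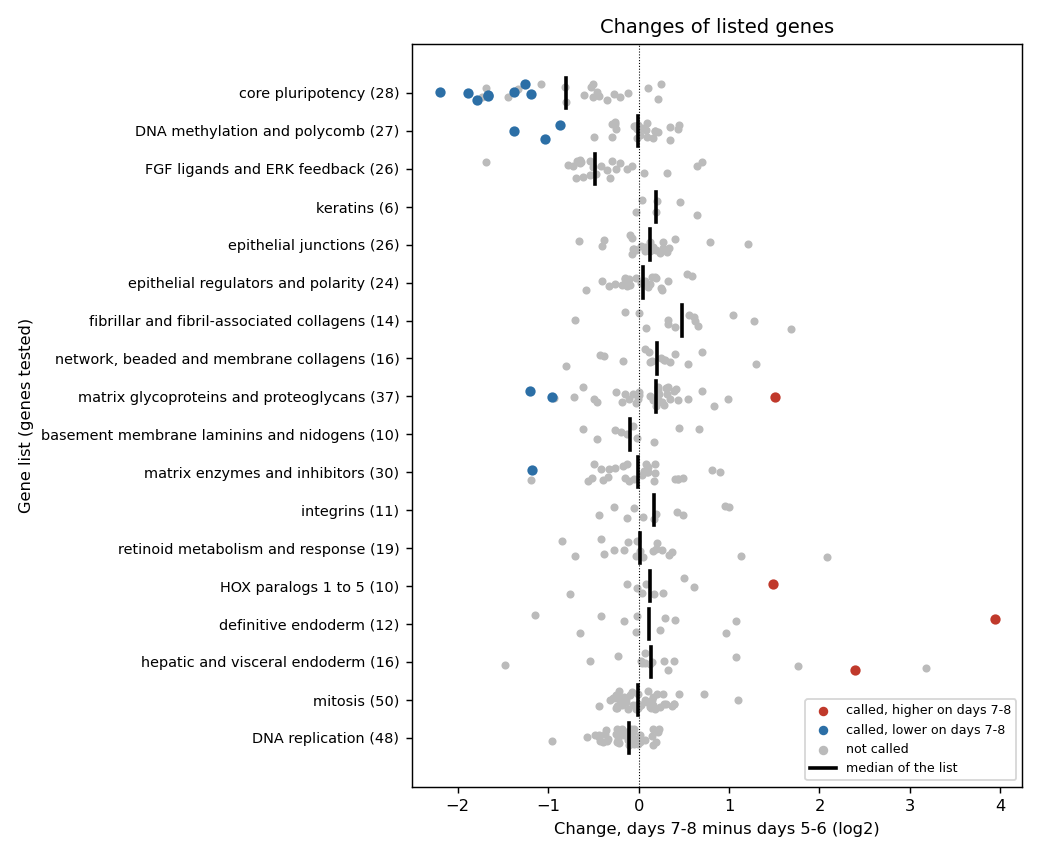
Each point is a measured gene of one of 18 gene lists, placed by its change from days 5-6 to days 7-8 (horizontal axis, log2); black bars are list medians, red and blue points are called genes that were higher and lower on days 7-8, and grey points were not called. The core pluripotency list, with 8 blue points and a median of -0.80, stands furthest left, and the keratin and epithelial lists hold no coloured point.

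Genes of the extracellular matrix gave single calls in both directions. Of 37 matrix glycoproteins and proteoglycans, EFEMP1 rose and 2 fell, 8.11% of the list against 0.59% of all genes. GPC4, a glypican that carries heparan sulfate on the cell surface, had a signal of 926 and 1662 on day 7 and 761 and 780.2 on day 8, against 2840.2 and 2671 on day 5 and 1621 and 2096 on day 6. It changed by -1.20 ± 0.17 (adjusted p = 0.000837). Day 7 replicate 2, at 1662, lay just above day 6 replicate 1, at 1621. CCN2, a secreted matricellular protein, changed by -0.95 ± 0.19 (adjusted p = 0.0251). For CCN2 the call ended in 4 of the 8 fits that left out 1 sample, and the adjusted p reached 0.16 without day 7 replicate 1. Among 30 matrix enzymes and inhibitors only HAS3, a hyaluronan synthase, was called (change -1.18 ± 0.25, adjusted p = 0.0291). In 5 of 8 fits without 1 sample HAS3 was no longer called, with an adjusted p of up to 0.228 without day 7 replicate 1. None of 14 fibrillar collagens, 16 network and membrane collagens, 10 laminins and nidogens or 11 integrins was called; with the replicate block 1 fibrillar collagen and 1 integrin were.

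Most collagens nevertheless had a positive change. This was so for 12 of 14 fibrillar collagens, with a median of 0.48, and for 12 of 16 network and membrane collagens, with a median of 0.20, against 0.00 over all genes. Of the 14, 8 were present on all 8 arrays and 1 on none. Of the 16, 5 were present on all 8 arrays and 6 on none, so part of these signs rests on signal not above background. COL6A2, the largest rise of the 16 (1.30), was present on no array of either window. COL3A1, a collagen of soft tissue, had a signal of 10078 and 6703 on day 7 and 12545 and 7593 on day 8, against 1715 and 1096 on day 5 and 5785 and 5462 on day 6. All samples of days 7-8 lay above all samples of days 5-6, and the change was 1.69 ± 0.43 (adjusted p = 0.0807). COL2A1, the main collagen of cartilage and notochord, had a signal of 2495 and 1609 on day 7 and 3201 and 2163 on day 8, against 838 and 692 on day 5 and 1387 and 1016 on day 6. The windows did not overlap, and its change was 1.27 ± 0.32 (adjusted p = 0.0807). Neither passed the test here, but with the replicate block COL3A1 did (adjusted p = 0.0324), while COL2A1 stayed at an adjusted p of 0.0503. In the step before, COL3A1 had changed by 5.58 ± 0.43 (adjusted p = 2.08e-07) and COL2A1 by 2.11 ± 0.32 (adjusted p = 0.00111). COL1A1, the chief collagen of connective tissue, had a change of 0.00 ± 0.21, with a 95% interval of -0.44 to 0.45, and FN1, fibronectin, one of 0.30 ± 0.21 (adjusted p = 0.665).

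Lists of markers of other lineages that such a culture could hold gave almost no calls, in lists so small that the 0.59% called of all genes would rarely give one. No gene was called among 13 trophoblast, 16 amnion, 7 surface ectoderm, 7 foregut, lung and kidney, 10 primitive streak and mesoderm, 8 cardiac, 10 endothelial and 4 blood genes. Among 28 mesenchymal and contractile genes 1 was called, THY1, a surface glycoprotein of both stem cells and fibroblasts, which changed by -0.81 ± 0.17 (adjusted p = 0.0277). THY1 lost its call in 5 of 8 fits without 1 sample, and without day 6 replicate 2 its adjusted p was 0.18. Of the genes of cell division, none of 50 mitosis genes and 48 DNA replication genes was called, with medians of -0.01 and -0.11. Changes were negative for 28 of the 50 mitosis genes and for 38 of the 48 DNA replication genes.

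Steps of a single day gave almost no calls. With limma, 0 genes were called for day 6 against day 5 (359 at an unadjusted p under 0.05, 2.94%) and 0 for day 7 against day 6 (314, 2.57%). For day 8 against day 7 it called 1, SELENOM (0.0082%), with 587 at an unadjusted p under 0.05 (4.81%). The neighbouring steps of the course share samples with this one, and their values are set side by side only. Days 5-6 against days 3-4 gave 178 higher (1.46%) and 74 lower genes (0.607%), 2.07% in all. Days 9-10 against days 7-8 gave 51 higher (0.418%) and 125 lower (1.02%), 1.44% in all. By days 5-6, 1182 genes (9.69%) were higher and 820 (6.72%) lower than on day 0, but with arrays centred on the probe sets of both chips 784 were higher and 898 lower. The same centring gave 116 higher and 24 lower for days 5-6 against days 3-4. With the replicate block the neighbouring steps gave 472 and 373 calls. In the 3 steps from days 3-4 to days 9-10 the changes of NANOG were -0.72 ± 0.31, -1.89 ± 0.31 and -1.24 ± 0.31 (adjusted p = 0.287, 0.00553 and 0.0525). Those of DNMT3B were -0.69 ± 0.20, -1.38 ± 0.20 and -1.52 ± 0.20 (adjusted p = 0.0743, 0.00105 and 0.000277). For MIR302B the 3 changes were -0.40 ± 0.37, -2.20 ± 0.37 and -2.83 ± 0.37 (adjusted p = 0.713, 0.0053 and 0.000237), and for EFEMP1 0.33 ± 0.22, 1.51 ± 0.22 and 1.28 ± 0.22 (adjusted p = 0.568, 0.00164 and 0.00441). NANOG passed the test in the middle step only, and DNMT3B, MIR302B and EFEMP1 in the middle and last steps, but no difference between steps was called for any of the 4. No gene was called when the change into days 5-6 was subtracted from the change into days 7-8 with limma (621 at an unadjusted p under 0.05, 5.09%); with the replicate block 4 were.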

How the data were processed

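RNA of H1, H9 and HUES8 cells was hybridised to the 2 arrays, A and B, of the HG-U133 set, per the labels. The authors deposited MAS5 signal, a linear intensity scaled per array, and a detection p-value per probe set, per the file headers; the scaling target is not given in the sources used here. A second deposited copy of the intensity values differed by at most 5.0e-06 of a value. Signals were taken to log2 without further normalization, each chip by itself. Of the probe sets, 34491 are annotated to 1 gene, 1597 to several and 8840 to none; the last 2 kinds were not named. Symbols of 34454 matched the current reference table. Probe sets present on at least 2 of 26 arrays of their chip (21528) were fitted, and 1 stood for its gene, the brightest, with probe sets that can cross-match other genes taken only where there was no other. limma 3.58.1 in R 4.3.3 fitted 13 group means with an intensity trend (13 residual degrees of freedom), so drift between the 2 days of a window did not enter the error. P-values are two-sided and adjusted over 12201 genes per comparison. Labels name the 2 samples of a day biological replicates, without saying what was separate, so p-values measure only the spread between these samples. The fit was tested on simulated data. Days share the replicate numbers 1 and 2, and the labels do not say what a number shares. Deviations of same-numbered samples from their day means correlated at r = 0.109 to 0.313 across genes in all 6 pairs of the days 5 to 8. The other samples were not checked in this way. The fit with the number as a block used the same term for all 26 samples, H9 and HUES8 among them. It is given where it changes a call or a count, and the fit without the block stayed the main one.

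The gene lists and the genes to be named were chosen with earlier results of these data known. Named were a fixed set, the 12 largest rises and falls present in both windows without overlap, called genes present in 1 window only, up to 4 called members per list, and called differences between steps. Other called genes were named after their values were seen. Alternatives changed the samples, error model, normalization, filter, choice of probe set, covariate and replicate block. The 52 columns of detection calls were not used, and array number limits the precision. POU5F1, DPPA3, TDGF1, DNMT3L, ZSCAN10 and ESRG were not analysed here.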

Additional observations from a re-analysis of the deposited data

Results flagged for a closer look

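Within a window of 4 samples, 1 sample stood far from the other 3 in 14 windows of named genes, 4.64% of those checked, which is no more than the 1 in 20 that chance gives. Replicate 2 of day 7 was the distant sample for 4 genes on days 7-8. It had the lowest signal of HOXC5, 712 (others 1058, 1076 and 1112), and of GINS4, a replication factor, 61.6 (others 291, 314 and 247). It had the highest signal of GRHL3, an epithelial transcription factor, 1582 (others 538, 552 and 584), and of LRP8, 301 (others 144, 126.8 and 146). The same sample had the lowest share of probe sets present on the B chip, 34.5% (others 39.5%, 38.8% and 39.4%). Its part in these values was not tested.

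Replicate 2 of day 8 had the lowest signal of NANOG, 115.5 (others 369, 374 and 405), and of MYC, 5.14 (others 179.9, 132.8 and 113). Replicate 1 of day 8 had the lowest RARB signal, 496 (others 694, 671 and 689).

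On days 5-6, replicate 2 of day 5 had the lowest signal of BMP5, 9.70 (others 75.3, 90.4 and 79.4), and the highest of HEY2, 3885 (others 1693, 1505 and 1486). Replicate 1 of day 5 had the lowest CDH1 signal, 6653 (others 9032, 8719.9 and 9219), and the highest IDI1 signal, 539 (others 339, 336 and 353). Replicate 1 of day 6 had the lowest signal of IFIT3, 12.4 (others 104, 97.6 and 149), and of SELENOM, 269.7 (others 552, 608 and 531). Replicate 2 of day 6 had the lowest LEFTY1 signal, 326 (others 4613, 4206 and 2957).

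SELENOM was the only gene whose change into days 7-8 differed from its change into days 9-10 by the test of that difference, at -3.81 on the log2 scale (limma, adjusted p = 0.0285).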

How the results depend on the processing

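The count of 72 genes called for days 7-8 against days 5-6 moved with the error model, the block and single samples. It was 17 with only the 8 samples of days 5 to 8, 0 with the days pooled as 4 against 4 replicates (1257 at an unadjusted p under 0.05) and 27 with no intensity trend. Leaving out 1 sample gave 18 (without day 6 replicate 2) to 146 (without day 7 replicate 2). Of the 72 genes, 58, 72 and 46 lost their call under those first 3 settings, 30 with arrays centred on the probe sets of both chips, 12 with no detection filter, 9 with the mean of a gene's probe sets and at most 2 after quantile normalization, with an offset of 50 before log2, with the stricter detection filter (of those it still tested), or with the ACTB 3′/5′ ratio as covariate. The cause of these losses was not tested. None of the 72 changed sign under any alternative.

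With the replicate number as a block, the counts were 172 for days 7-8 against days 5-6 (all 72 among them), 472 for days 5-6 against days 3-4, 373 for days 9-10 against days 7-8 and 4 for the difference from the step before. Of the named genes not called, COL3A1, ZFP42, ITGAV, CDKN2B, ID3, IFITM1 and IGFBP6 gained a call, and the block changed no other call of a named gene.

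For the other comparisons, leaving out 1 sample gave 0 to 4 genes for day 6 against day 5, 0 to 5 for day 7 against day 6 and 0 to 7 for day 8 against day 7. The call for day 8 against day 7 was also lost (0) with only the 8 samples, no intensity trend, quantile normalization, the offset and no detection filter. Days 5-6 against days 3-4 gave 153 genes with no intensity trend, 140 after centring and 102 to 250 without 1 sample. Days 9-10 against days 7-8 gave 117 with no intensity trend, 282 after quantile normalization and 63 to 249 without 1 sample. Days 5-6 against day 0 gave 1540 to 2059 without 1 sample. The difference from the step before gave 1 gene with no intensity trend, the stricter detection filter, the mean of probe sets or the ACTB covariate, 3 with the offset and 0 to 8 without 1 sample. The difference from the step after gave 0 with no intensity trend, quantile normalization, the offset or no detection filter, and 0 to 6 without 1 sample. Alternatives for day 6 against day 5, day 8 against day 7, days 5-6 against days 3-4 and day 0, and days 9-10 against days 7-8 were chosen after seeing the data.

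Among uncalled named genes, the direction turned in a few. CDH1 had -0.038 with the mean of its probe sets and -0.043 to 0.18 without 1 sample. LUM had -0.015 after quantile normalization, -1.62 with no detection filter and -0.046 with the covariate. GINS4 had 0.48 with no detection filter. Without 1 sample the changes ran from -0.28 to 1.73 for CENPE, from -0.30 to 0.31 for COL1A1, from -0.16 to 0.10 for KRT7, from -0.78 to 0.78 for LUM and from -1.28 to 0.056 for NTN4. The cause was not tested. Signals not above background limit FOXA2, TTR, ZMAT1, NFATC2 and TMEM176A, which were present on no array of days 5-6.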
